A study of Mus musculus with 13 samples.

Results

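Amino acid transporter genes are described here in mammary tumors that arose in mice overexpressing TSG101, compared with mammary glands of wild-type mice. The genes were taken by symbol, as all members of the solute carrier families Slc1, Slc3, Slc6, Slc7, Slc36, Slc38 and Slc43 in the deposited gene table. This rule gave 38 of the 15213 listed genes, and it used no measured value.

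RNA sequencing was performed on flash-frozen tissue, and the 13 libraries fall into 10 tumors and 3 glands. The tumors came from 6 females of the genotype MtTA Teto-TSG101wt, in which the Mouse Mammary Tumor Virus promoter drives the transactivator tTA in the luminal epithelium, and tTA in turn switches on a transgene that carries Tsg101 and a luciferase reporter. This model stems from 1 founder line, and most of its tumors arose in females that had borne litters. Among the 6 females, 3 gave 1 tumor each, 2 gave 2 tumors (tumors 2 and 3, and tumors 5 and 6) and 1 gave 3 tumors (tumors 8, 9 and 10), so the tumors were not all independent samples. The glands came from 3 wild-type FVB females. Age and, for the glands, reproductive stage are not given in the sources used here. The labels name both a university core facility and a sequencing company, and no batch could be assigned to a library.

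Cells take up amino acids through carriers of several families. Slc7 light chains such as LAT1 (Slc7a5) pair with the heavy chain CD98 (Slc3a2) and exchange one amino acid for another, so they depend on other carriers to supply the amino acid that leaves. Sodium-driven carriers of the Slc1, Slc6 and Slc38 families move amino acids, and in the case of Slc6 also taurine, creatine and monoamines, against their gradient. Proton-driven Slc36 carriers and some Slc38 carriers sit on lysosomes, where they take part in telling the kinase complex mTORC1 whether amino acids are at hand. In the lactating gland these carriers feed the synthesis of milk proteins, and in many tumors Slc1a5, Slc7a5, Slc7a11 and Slc6a14 have been studied as routes of supply.

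Promoter sequence is shown for members whose start site carries letters bound by factors that respond to amino acid shortage or to growth signals. RefSeq promoters of GRCm38.p6 were at hand for 25 of the 38 members, 8 of them with a changed transcript level. Capitals mark the matched letters, and bases are numbered from the transcription start, with -1 the last base before it. The 100 bases before the starts of Slc6a14 (chrX:21714800-21714899, plus strand) and Slc6a17 (chr3:107518019-107518118, minus strand), both higher in tumors, each hold an AP-1 match, TGANTCA, from -82 to -76 and from -33 to -27. AP-1 letters also lie before the start of Slc38a10, which was lower in tumors (-166 to -160), and before starts of Slc7a1 and Slc38a7, which were not called. The same stretch of Slc1a3 (chr15:8710808-8710907, minus strand), which was lower in tumors, holds a STAT match, TTCNNNGAA, from -96 to -88. STAT letters also lie before starts of Slc7a1, Slc7a11 and Slc38a9, which were not called. The last sequence, from -67 to -38 before a start of Slc7a11 (chr3:50443651-50443680, minus strand), holds a pair of matches to the ATF4-C/EBP composite TGATGNAA on opposite strands, from -66 to -59 and from -47 to -40.
Slc6a14: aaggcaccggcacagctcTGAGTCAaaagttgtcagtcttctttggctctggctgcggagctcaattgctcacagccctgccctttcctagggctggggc
Slc6a17: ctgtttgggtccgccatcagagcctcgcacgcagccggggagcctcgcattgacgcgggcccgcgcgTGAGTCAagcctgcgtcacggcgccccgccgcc
Slc1a3: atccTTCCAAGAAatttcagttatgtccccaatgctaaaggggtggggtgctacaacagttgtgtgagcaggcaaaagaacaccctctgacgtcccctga
Slc7a11: cTGATGCAAacctggagaatTTGCATCAtc

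Both strands of the 250 bases before each start were searched. The 25 members have 37 promoters, since some have several starts. AP-1 letters were found in 6 of these 37 (5 members) and in 6.75% of all 32851 promoters. STAT letters were in 4 of the 37 (4 members) and 7.02% of all promoters, and the ATF4-C/EBP composite was in 3 (Slc7a11 and Slc7a7) and 3.45%. TCF/LEF letters, CTTTGAA, which overlap the STAT letters at 1 start of Slc7a1, were in 3 (3 members) and 4.46%. The E-box CACGTG was in 4 (4 members) and 6.02%. Such matches describe the letters only.

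Levels are given in normalized cpm, the deposited values, which are read counts scaled to the size of the library and by a further factor. Fold changes are differences of log2(normalized cpm + 1), tumors minus glands, and understate changes of weakly expressed genes. Genes were called higher or lower with limma at a false discovery rate (FDR, Benjamini-Hochberg over all listed genes) below 0.05 and a change of more than 2-fold. Depth was between 6176269 and 16835397 reads in tumors and between 11672487 and 23889042 reads in glands. Tsg101 was at 66.5 ± 15.5 in tumors (SD, n = 10) and 53.2 ± 7.68 in glands (SD, n = 3), with a log2 fold change of 0.30 (limma, adjusted p = 0.279). The deposited table does not separate transgene from endogenous transcripts. The precursor of ribosomal RNA, Rn45s, took between 0.456% and 27.4% of the reads in tumors and between 0.296% and 4.35% in glands. Tumor 9 and gland 3 held the highest share in each group.

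The tissue content of the libraries differed along with the groups. Summed levels of 11 epithelial markers overlapped, from 2425 to 3572 in tumors and from 1700 to 3611 in glands. Of these markers 1 was called higher, Cldn4 (log2 fold change 1.59), and 0 lower. Epcam was higher in all tumors than in all glands but short of the fold limit (0.65, adjusted p = 0.0233, limma). The same 11 markers set the epithelial scale used below. Milk protein genes summed to between 165030 and 305120 in glands and between 1384 and 76623 in tumors, and 7 of 7 were lower in tumors. All 8 adipocyte markers were lower, with sums from 3512 to 11047 in glands and from 39.1 to 416 in tumors, where Plin1 and Lep were at 0 in the lowest library. Brown adipocyte markers (4 of 6), lymphocyte markers (8 of 9), endothelial markers (6 of 7) and fibroblast markers (4 of 6) were lower in tumors. The lymphocyte sum was 576 in gland 1 and 492.5 in gland 3 but 30.05 in gland 2, within the range of the tumors (12.2 to 133). Squamous (8 of 9), neutrophil (3 of 5) and proliferation markers (4 of 8) were higher. Of 8 basal markers, 5 were higher and 3 lower, and of 6 Schwann cell markers, 2 were higher and 2 lower. Of 8 macrophage markers 1 was called higher, Cd68, with 6 higher at an unadjusted p below 0.05, among them C1qa, C1qb and C1qc with all tumors above all glands. None of 5 mast cell or 6 skeletal muscle markers was called by limma, with 1 and 0 at an unadjusted p below 0.05. In such bulk samples, fewer cells of a type and less RNA per cell cannot be told apart. Marker sums and a scaling to epithelial markers are given for some genes, but the part of tissue content in the changes described next was not tested.

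Of the 38 transporter genes, 5 were higher and 11 lower in tumors, and 22 were not called. This is 13.2% higher and 28.9% lower, beside 10.5% and 10.1% of all listed genes, and 42.1% called in either direction, beside 20.6%. Tumors and glands did not overlap in 12 of the 16 called genes. All tumors were above all glands in 5 of the 38 genes, beside 11.4% of all listed genes, and below them in 8, beside 10.3%. The median log2 fold change was 0.08 over the 38 genes and 0.01 over all genes. The called genes were unevenly spread over the families. All 5 higher genes were among the 7 listed members of Slc6, whereas the 31 members of the other families included 11 lower genes and 0 higher ones by limma, with 2 higher at an unadjusted p below 0.05. On recovered reads, edgeR and DESeq2 each called 1 of these 31 genes higher, Slc1a7. Lower genes were 2 of 6 in Slc1, 2 of 10 in Slc7, 1 of 3 in Slc36, 3 of 8 in Slc38 and 3 of 3 in Slc43. Among all 31, called or not, 15 had a positive log2 fold change. The split between families was noticed in these data and was not tested.

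Summed over the 38 genes, the level was between 985 and 2085 in tumors and between 1246 and 1986 in glands, so that the groups overlapped. The split of higher and lower calls moved with scaling. With library size as the only scaling, which shifted the median of all genes to 0.31, 6 transporter genes were higher and 7 lower. With each library scaled to its epithelial markers, which shifted the median to -0.27, 4 were higher and 12 lower. None of the 16 called genes changed its direction under any alternative that was run, whereas some genes that were not called, with log2 fold changes near 0, did change sign.

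**Figure D1:**
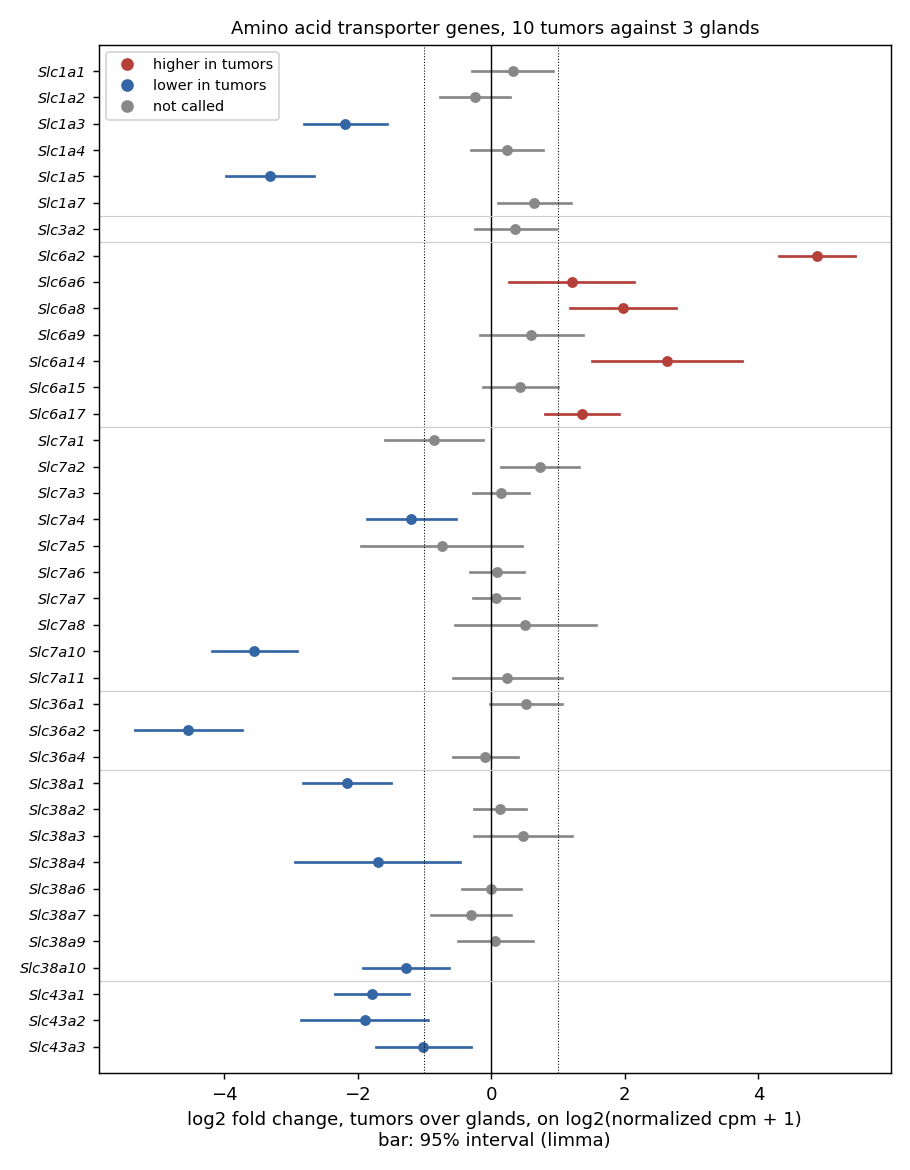
Log2 fold change (tumors minus glands, on log2(normalized cpm + 1), x axis) of the 38 transporter genes (y axis, grouped by family), with 95% intervals from limma as bars and dotted lines at a 2-fold change. Red points mark 5 genes higher in tumors, all of the Slc6 family, and blue points 11 lower genes of the other families.

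Slc6a2, the carrier that takes norepinephrine back into nerve endings, showed the largest rise (chr8:92960470-93001667). It was at 21.4, 34.4 and 52.2 in the lowest, median and highest tumor and at 0.214, 0.103 and 0.244 in the 3 glands. Every tumor lay above every gland, with a log2 fold change of 4.87 (SE 0.27, adjusted p = 1.70e-08, limma). The glands held only 5, 2 and 2 reads of this gene, and pooled over libraries the ratio of tumors to glands was 212, with an exact 95% interval of 112 to 464 that covers counting error only. Among the 10 tumors its level varied by 2.44-fold, less than that of the other 4 higher genes.

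Slc6a14 is a carrier with a broad range that takes up both neutral and cationic amino acids (chrX:21714900-21742358). Its lowest, median and highest tumors were at 19.4, 53.7 and 187, and the glands were at 5.57, 7.07 and 14.4. The groups did not overlap, with the lowest tumor close above the highest gland. On the log2 scale the rise was 2.63 (SE 0.53, adjusted p = 0.0015, limma). The spread was wide even within 1 mouse, since tumors 8, 9 and 10 were at 33.3, 187 and 55.6. Tumor 9, the highest, also held the highest share of Rn45s. Without that tumor the log2 fold change was 2.44 (adjusted p = 0.000977, limma).

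Slc6a8, the creatine transporter (chrX:73673133-73682502), was at 46.6, 70.9 and 140 in the lowest, median and highest tumor. The glands were at 26.9, 29.1 and 9.26, and the groups did not overlap. Expressed as a log2 fold change, the rise was 1.97 (SE 0.37, adjusted p = 9.34e-04, limma). Gland 3 was the lowest gland, and leaving it out gave a log2 fold change of 1.47, the lowest value over the libraries left out in turn.

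Slc6a6, the taurine transporter (chr6:91684048-91759063), was the most abundant higher gene. Tumors were at 73.0, 123 and 290 (lowest, median and highest), and the glands at 86.2, 65.3 and 40.6. Here 8 of the 10 tumors lay above all glands and 2 overlapped with them. The log2 fold change of 1.20 (SE 0.44) only just passed the threshold (adjusted p = 0.0488, limma). The call was lost without any single one of 10 libraries (tumors 2, 3, 4, 6, 7, 8 and 10 and each gland), with adjusted p between 0.0523 and 0.170 and log2 fold changes between 0.91 and 1.45. It was also lost on the epithelial scale (0.90, adjusted p = 0.0797, limma), with a pseudocount of 5 (1.15, adjusted p = 0.0538, limma) and under the filter of the methods (adjusted p = 0.0546, limma).

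Slc6a17, a vesicular carrier of neutral amino acids in neurons (chr3:107467548-107518018), was low throughout. It was at 1.14, 3.01 and 4.15 in the lowest, median and highest tumor and at 0.471, 0.516 and 0.366 in the glands, with no overlap and a log2 fold change of 1.36 (SE 0.26, adjusted p = 0.00105, limma). With a pseudocount of 5 in place of 1 the log2 fold change was 0.52 and the gene was not called. The remaining Slc6 genes, the glycine carrier Slc6a9 (log2 fold change 0.60) and Slc6a15, which carries branched-chain amino acids (0.44), were not called, with adjusted p of 0.225 and 0.230 (limma).

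**Figure D2:**
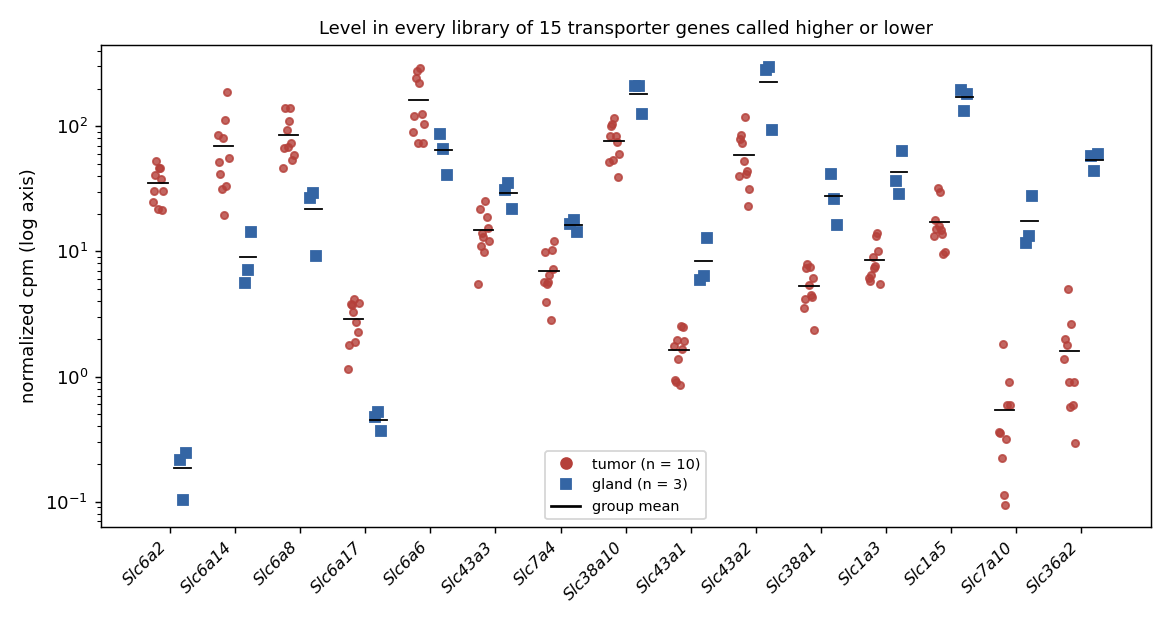
Normalized cpm (y axis, log scale) in every tumor (red circles) and gland (blue squares) for 15 of the 16 called transporter genes (x axis), with group means as black lines. Slc38a4 is left out because 2 tumors had no read, and tumors and glands do not overlap in 12 of the genes shown.

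Among the genes that fell, Slc1a5 was the most abundant in glands per kilobase. It encodes ASCT2, which exchanges glutamine and other small neutral amino acids (chr7:16781334-16798274). Tumors were at 9.56, 14.9 and 31.9 (lowest, median and highest), and the glands at 195, 132 and 182. All tumors lay well below all glands, with a log2 fold change of -3.31 (SE 0.31, adjusted p = 1.99e-06, limma). This value was between -3.48 and -3.20 when each library was left out in turn. Scaled to epithelial markers or by library size alone, the gene was still called lower. The milk protein sum was between 165030 and 305120 in glands and between 1384 and 76623 in tumors, and its part in the level of Slc1a5 was not tested. On the scale of normalized cpm per kilobase of exon, Slc1a5 stood first of the 38 genes in glands (61.4) and 13th in tumors (6.20).

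Slc1a3, the glutamate and aspartate carrier GLAST (chr15:8634124-8710807), was at 5.48, 7.53 and 14.0 in the lowest, median and highest tumor. In glands it was at 36.4, 28.7 and 63.8, and the groups did not overlap. On the log2 scale the change was -2.18 (SE 0.29, adjusted p = 5.08e-05, limma). The other Slc1 genes were not called. These were the neuronal glutamate carrier Slc1a1 (0.32), the glial glutamate carrier Slc1a2 (-0.24), the neutral amino acid exchanger Slc1a4 (0.24) and the retinal glutamate carrier Slc1a7 (0.64, adjusted p = 0.0684, limma), given with their log2 fold changes. Slc1a7 lay higher in all tumors than in all glands but rested on 1 to 5 reads in each gland and 3 to 30 in each tumor. It was called higher with a pseudocount of 0.25, by edgeR, by DESeq2 and by voom.

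Slc36a2 and Slc7a10 had the lowest log2 fold changes. The place of Slc7a10 before Slc1a5 depended on the pseudocount (-1.96 and -3.03 with a pseudocount of 5) and on gland 3 (-3.18 and -3.25 without it). Slc36a2 is a proton-driven carrier of small amino acids that is known from brown and white fat (chr11:55158468-55185099). Its lowest, median and highest tumors were at 0.296, 1.15 and 5.02, and the glands at 57.9, 43.9 and 59.7, for a log2 fold change of -4.53 (SE 0.37, adjusted p = 5.86e-07, limma). Slc7a10 encodes Asc-1, a light chain for small neutral amino acids that is also known from adipocytes (chr7:35186095-35201116). It was at 0.0944, 0.357 and 1.83 in the lowest, median and highest tumor and at 11.6, 13.2 and 27.7 in the glands. The groups were apart in both genes, and the log2 fold change of Slc7a10 was -3.55 (SE 0.30, adjusted p = 6.73e-07, limma). The adipocyte marker sum was 3512, 3954 and 11047 in glands 1 to 3, and its highest value among tumors, 416, was in tumor 4, which also had the highest level of both genes among tumors. The part of fat tissue in these changes was not tested. Slc7a10 shares 12.1% of its exon bases with Lrp3 on the opposite strand, and whether reads were counted by strand is not given in the sources used here.

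Of the Slc38 carriers, Slc38a1 (SNAT1, a sodium-driven glutamine carrier, chr15:96571418-96643438) was at 2.37, 4.93 and 7.98 in the lowest, median and highest tumor. Glands were at 41.4, 26.0 and 16.2, all above the tumors, which gave a log2 fold change of -2.15 (SE 0.31, adjusted p = 9.73e-05, limma). Slc38a10, a little characterised member of the family (chr11:120103951-120151351), was at 39.4, 79.1 and 117 in tumors and at 211, 209 and 126 in glands. Its log2 fold change was -1.27 (adjusted p = 0.00475, limma), and it was not called with library size as the only scaling (-0.95).

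Slc38a4, or SNAT4 (chr15:96994816-97055956), was at or below 0.960 in 9 tumors and at 11.0 in tumor 4. Glands were at 3.13, 3.87 and 5.61, so that tumor 4 lay above all glands and the other 9 below. The log2 fold change was -1.70 (SE 0.58, adjusted p = 0.0370, limma). Without tumor 4 it was -2.02 (adjusted p = 2.61e-05, limma), whereas the call was lost without any single one of 11 other libraries (all but tumor 1), with adjusted p between 0.0508 and 0.104 and log2 fold changes between -1.85 and -1.51. It was also lost when tumors of 1 mouse were averaged (-1.42, adjusted p = 0.155, limma) and without the 3 tumors of 1 mouse (-1.47, adjusted p = 0.119, limma). Further losses were by edgeR (-1.46, adjusted p = 0.373), with library size as the only scaling (-1.45, adjusted p = 0.0747, limma) and with a pseudocount of 5 (-0.63). In all, the call was kept in 10 of 27 alternatives. Tumors 8 and 9 had 0 reads, which allows a level of at most 0.683. Skeletal muscle markers summed to 2065 in tumor 4, to 362 in tumor 10 and to at most 12.1 in the other tumors, and their part in the level of Slc38a4 was not tested.

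The remaining 5 Slc38 genes were not called. Slc38a2 (SNAT2), which is known to respond to amino acid shortage, was at 198, 236 and 312 in the lowest, median and highest tumor and at 209, 284 and 169 in glands. Its log2 fold change was 0.14, with a 95% interval of -0.25 to 0.53 (adjusted p = 0.610, limma). Slc38a9, the lysosomal arginine sensor of mTORC1, was at 7.28, 16.5 and 22.1 in tumors and at 15.7, 19.4 and 11.9 in glands, with a log2 fold change of 0.06 and a 95% interval of -0.49 to 0.62. Both genes overlapped between the groups. Slc38a3, a glutamine carrier of liver and kidney, Slc38a6 and the lysosomal glutamine exporter Slc38a7 had log2 fold changes of 0.48, 0.00 and -0.30.

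All 3 Slc43 genes were called lower, Slc43a3 only narrowly. Slc43a2 (LAT4), which lets large neutral amino acids pass down their gradient (chr11:75529915-75577575), was at 23.2, 48.0 and 118 in the lowest, median and highest tumor and at 281, 300 and 93.5 in the glands. Here 9 of 10 tumors lay below all glands, and tumor 6 lay above gland 3. The log2 fold change was -1.90 (SE 0.45, adjusted p = 0.00473, limma) and reached -2.44 without gland 3. Slc43a1 (LAT3), of the same function (chr2:84838855-84863586), was at 0.850, 1.69 and 2.52 in tumors and at 5.91, 6.35 and 12.7 in glands, with no overlap and a log2 fold change of -1.78 (SE 0.26, adjusted p = 1.12e-04, limma). Slc43a3 (chr2:84936545-84958509), a carrier of purine bases rather than amino acids, changed least, with a log2 fold change of -1.02 (limma, adjusted p = 0.0301) and 8 of 10 tumors below all glands. It was not called without tumor 1, 3 or 6 or without gland 1 or 2, with log2 fold changes between -0.99 and -0.87. The call was also lost when tumors of 1 mouse were averaged (-1.04, adjusted p = 0.0630, limma), without the 3 tumors of 1 mouse (-1.08, adjusted p = 0.0552, limma), with library size as the only scaling (-0.71), and by edgeR and DESeq2, where the change stayed just short of the fold limit.

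The heavy chain and its most abundant partner were not called. Slc7a5 (LAT1, chr8:121881146-121907686) was at 28.5, 97.0 and 378 in the lowest, median and highest tumor and at 205, 239 and 72.0 in glands. The groups overlapped, and the log2 fold change of -0.74 had a 95% interval of -1.95 to 0.47 (adjusted p = 0.350, limma). Tumor 6 stood apart at 378, while tumor 5 of the same mouse was at 108. Gland 3 was the lowest gland, and leaving it out gave -1.27 (adjusted p = 0.124, limma), while the epithelial scale gave -1.04 (adjusted p = 0.0850, limma). Slc3a2 (CD98 heavy chain, chr19:8706882-8723369) was at 131, 191 and 308 in tumors and at 153, 215 and 96.6 in glands. Its log2 fold change was 0.36 with a 95% interval of -0.25 to 0.97 (adjusted p = 0.368, limma), and the upper end of this interval lay close to a 2-fold rise. Without gland 3 the log2 fold change of Slc3a2 was 0.06 (adjusted p = 0.895, limma), and on the epithelial scale 0.05 (adjusted p = 0.874, limma). With library size as the only scaling it was 0.68 (adjusted p = 0.162, limma).

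**Figure D3:**
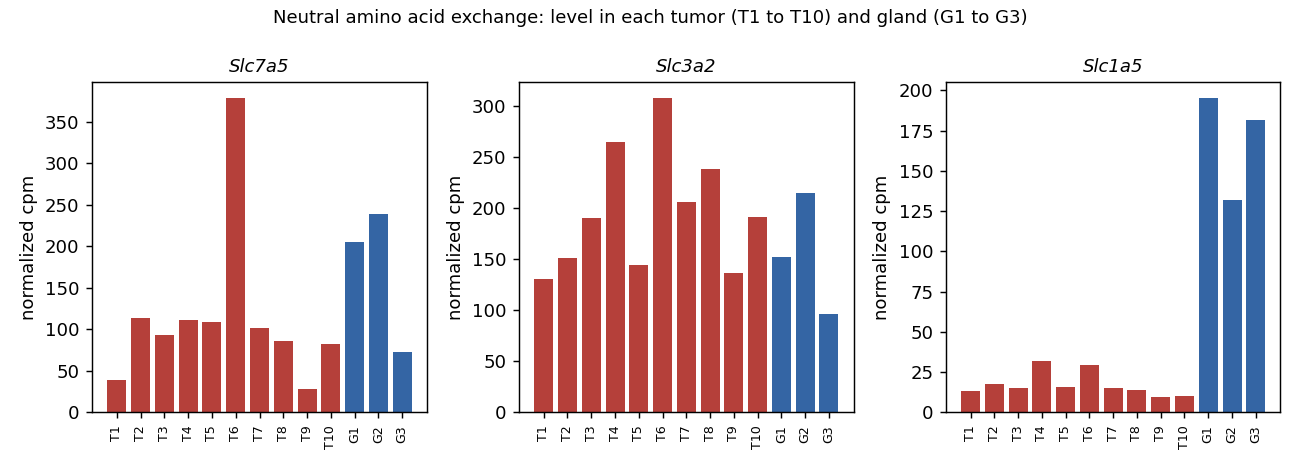
Normalized cpm (y axis, from 0) of Slc7a5, Slc3a2 and Slc1a5 in each tumor (T1 to T10, red bars) and gland (G1 to G3, blue bars). The first 2 genes overlap between the groups, with Slc7a5 highest in tumor 6 (378), whereas Slc1a5 is at most 31.9 in tumors and at least 132 in glands.

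Since the heavy chain is shared, its level was set beside that of the 6 listed light chains on the scale per kilobase. The ratio of Slc3a2 to the summed light chains was between 0.797 and 1.88 in tumors, with a median of 1.33, and it was 0.590, 0.624 and 0.797 in the ordered glands. The lowest tumor and the highest gland were thus alike. Slc7a5 made up between 27.6% and 81.8% of the light chains in tumors and between 36.8% and 74.0% in glands. The share of Slc7a10 was between 7.15% and 25.5% in glands and at most 1.76% in tumors.

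Of the other light chains, Slc7a11 (xCT), which imports cystine in exchange for glutamate, was at 5.78, 11.5 and 27.3 in the lowest, median and highest tumor and at 8.31, 5.89 and 16.5 in glands. Its log2 fold change was 0.24, with a 95% interval of -0.58 to 1.06 (adjusted p = 0.675, limma). Slc7a8 (LAT2) was at 7.44, 14.9 and 55.1 in tumors and at 14.7, 14.4 and 5.49 in glands, with a log2 fold change of 0.51 (limma, adjusted p = 0.470). Both overlapped between the groups and both were highest in tumor 7. Slc7a6 and Slc7a7, which exchange cationic for neutral amino acids, had log2 fold changes of 0.08 and 0.07. Reads of Slc7a7 are uncertain, since 9.31% of its exon bases lie on Oxa1l.

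Of the cationic amino acid carriers Slc7a1, Slc7a2 and Slc7a3, none was called by limma, edgeR or DESeq2, and by limma 2 had an unadjusted p below 0.05. For Slc7a1 (CAT1) the estimate was -0.86 on the log2 scale (adjusted p = 0.0702, limma), and for Slc7a2 (CAT2) it was 0.73 (adjusted p = 0.0536, limma). Slc7a1 was called lower without gland 3 (-1.26, adjusted p = 0.0160, limma) and on the epithelial scale, and Slc7a2 was called higher with library size as the only scaling (1.04). Without gland 3 and on the epithelial scale, Slc7a2 had log2 fold changes of 0.41 and 0.45 (adjusted p = 0.263 and 0.164, limma). Slc7a3 had a log2 fold change of 0.14. Slc7a4 (chr16:17572018-17576890), a relative of these carriers, was the only one called, at 2.83, 6.06 and 12.0 in the lowest, median and highest tumor and at 16.4, 17.9 and 14.3 in glands. Its log2 fold change was -1.20 (SE 0.31, adjusted p = 0.00878, limma). The call was lost with library size as the only scaling (-0.90, adjusted p = 0.0567, limma) and with a pseudocount of 5 (-0.86). Among Slc36 genes, the lysosomal carriers Slc36a1 (0.52) and Slc36a4 (-0.09) were not called.

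Ordered per kilobase, the most abundant transporter transcripts in glands were Slc1a5 (61.4), Slc3a2 (52.7), Slc7a5 (49.0) and Slc38a2 (47.3). In tumors they were Slc3a2 (66.8), Slc38a2 (51.3), Slc7a5 (32.4), Slc6a6 (26.2), Slc6a8 (21.4) and Slc6a14 (20.3). Both lists thus shared Slc3a2, Slc38a2 and Slc7a5, and the 3 Slc6 genes followed in tumors. At the other end, 7 of the 38 genes had means of 5 or less in both groups.

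Tumors differed among themselves. Slc6a14 and Slc7a5 spanned 9.68-fold and 13.3-fold across the 10 tumors, beside 2.44-fold for Slc6a2. Tumor 6 had the highest Slc7a5 and the lowest Slc6a14, and tumor 9 the lowest Slc7a5 and the highest Slc6a14. Tumor 6 also had the highest milk protein sum among tumors (76623) and tumor 9 the lowest (1384). Among tumors, tumor 9 had in addition the highest macrophage sum (4524), the lowest epithelial sum (2425) and the highest Rn45s share (27.4%), and tumor 6 the highest epithelial sum (3572) and the lowest neutrophil sum (308). Tumor 7, highest in Slc7a8 and Slc7a11, had the highest sums of squamous (2817), basal (4626), neutrophil (3963), fibroblast (1122), endothelial (114) and brown adipocyte markers (40.6) among tumors. The part of these values in the transporter levels was not tested.

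**Figure D4:**
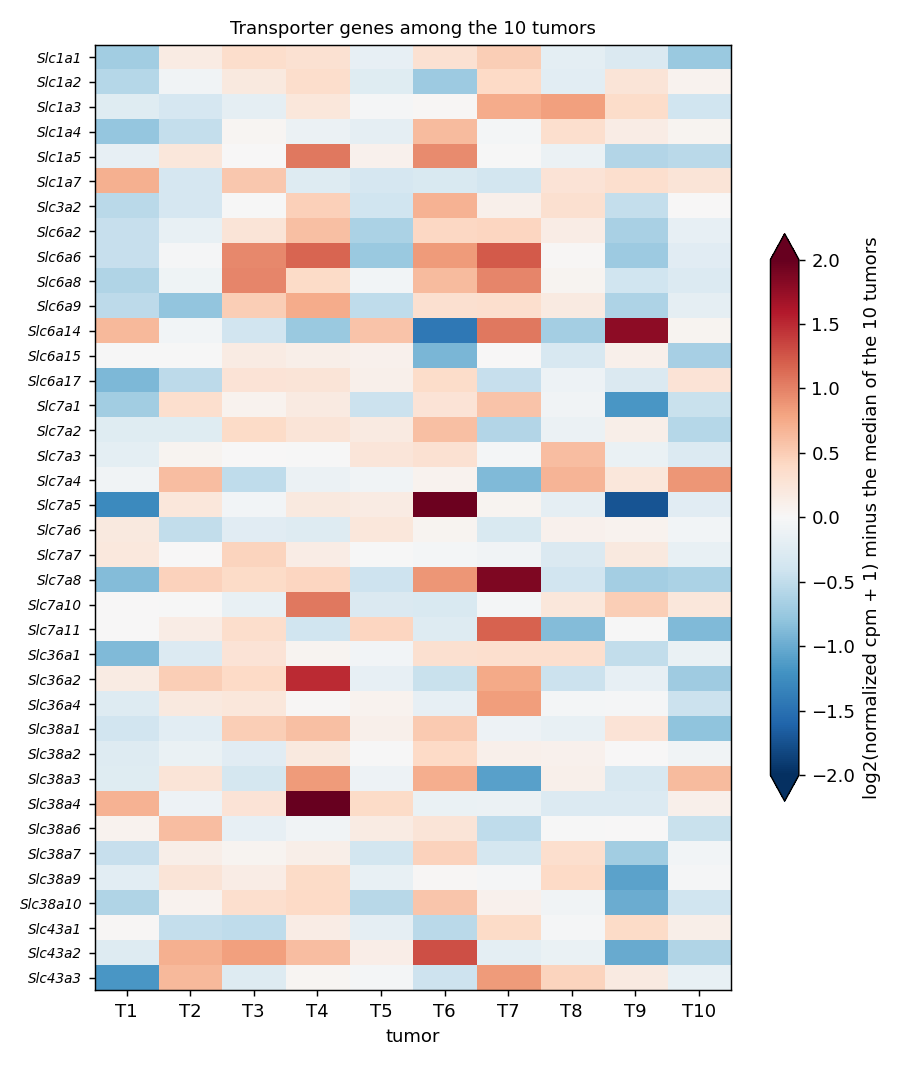
Difference of log2(normalized cpm + 1) from the median of the 10 tumors (color) for the 38 transporter genes (rows) in tumors T1 to T10 (columns). Tumors 6 and 9 lie at opposite ends for Slc6a14 and Slc7a5, tumor 7 is high in Slc7a8 and Slc7a11, and tumor 4 is high in Slc38a4 and Slc36a2.

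Genes that sense, make or use amino acids were listed for comparison, 143 in all, of which 11 were higher and 19 lower. This is 7.69% and 13.3%, beside 10.5% and 10.1% of all listed genes. With library size as the only scaling the counts were 14 and 14, and on the epithelial scale 9 and 34. The ATF4 response list holds this factor, the kinases Eif2ak3 and Eif2ak4 and their substrate Eif2s1, which act upstream of it, and genes that it is known to switch on when amino acids are short. Of its 27 listed genes, 2 were higher and 4 lower, with a median log2 fold change of -0.20. This is 7.41% higher and 14.8% lower, beside 10.5% and 10.1% of all listed genes. The 4 lower genes were Phgdh, Pycr1, Asns and Aldh18a1, which are enzymes of amino acid synthesis. Without the fold limit 3 genes were higher and 8 lower, beside 2334 and 2427 of all 15213 listed genes. Among the 8 were the upstream kinase Eif2ak3 (-0.94), the factor Atf5 (-0.94) and the translation inhibitor Eif4ebp1 (-0.71), which are no such enzymes. Psat1 (0.24) and Psph (0.26), the later enzymes of serine synthesis, were not called. Phgdh, the first enzyme of serine synthesis, was at 4.50, 8.10 and 16.3 in the lowest, median and highest tumor and at 68.0, 89.9 and 59.9 in glands, with a log2 fold change of -2.99 (limma, adjusted p = 6.40e-06). Pycr1, the last enzyme of proline synthesis, and Asns, asparagine synthetase, had log2 fold changes of -2.01 (adjusted p = 1.73e-04) and -1.61 (adjusted p = 8.36e-04, limma), and all tumors were below all glands for each. The genes called higher were the stress factor Atf3 (1.92) and the mTORC1 inhibitor Ddit4 (1.28), and Nupr1 (0.82) was higher only without the fold limit.

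Of 44 amino acid enzymes, 7 were higher and 13 lower, or 15.9% and 29.5% beside 10.5% and 10.1% of all listed genes, and the median log2 fold change was -0.52. Arg1, which splits arginine into ornithine and urea, was at 47.3, 118 and 281 in the lowest, median and highest tumor and at 1.67, 3.30 and 3.41 in glands. All tumors were above all glands, with a log2 fold change of 4.95 (SE 0.50, adjusted p = 4.21e-06, limma). Macrophages and neutrophils are known to express Arg1. The macrophage marker sum was between 922 and 4524 in tumors and between 508 and 1843 in glands, the neutrophil marker sum between 308 and 3963 and between 7.07 and 60.6, and their part was not tested. Next were Hal, which breaks down histidine (1.68), and Gatm, the first enzyme of creatine synthesis (1.62). The largest falls were in Gldc of the glycine cleavage system (-4.15), Cdo1, which oxidizes cysteine (-3.65), and Tph1, which hydroxylates tryptophan (-2.68). Gamt, the enzyme of creatine synthesis that follows Gatm (-0.56), and Csad, which acts after Cdo1 on the way to taurine (-0.07), were not called.

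Of the 34 listed genes of amino acid sensing by mTORC1, 1 was higher, the arginine sensor Castor1 (1.37), and 1 was lower, the GTPase Rragd (-1.08, adjusted p = 0.0396, limma), with a median log2 fold change of -0.02. This is 2.94% in each direction, beside 10.5% and 10.1% of all listed genes. Rragd overlapped between the groups, with tumor 4 at 6.71 above all glands, and the list had 0 lower genes without any single one of 9 libraries (tumors 1, 2, 3, 5, 6, 8 and 10 and glands 1 and 2) and by edgeR and DESeq2. None of the 20 cytosolic aminoacyl-tRNA synthetases was called by limma, edgeR or DESeq2, beside 20.6% of all listed genes called by limma. Without gland 3, limma called 1 lower, and on the epithelial scale 2. By limma 6 of the 20 were lower and 0 higher at an unadjusted p below 0.05, and the median was -0.34. The share of all listed genes at that cut-off was not computed. At an FDR below 0.05 without the fold limit, 1 was lower and 0 higher, beside 31.3% of all listed genes in either direction. Of 19 amino acid and peptide carriers of other families, 1 was higher, the peptide carrier Slc15a1 (1.98), and 1 was lower, the lysosomal Mfsd12 (-1.18), with a median of 0.23. This is 5.26% in each direction, again beside 10.5% and 10.1%.

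**Figure D5:**
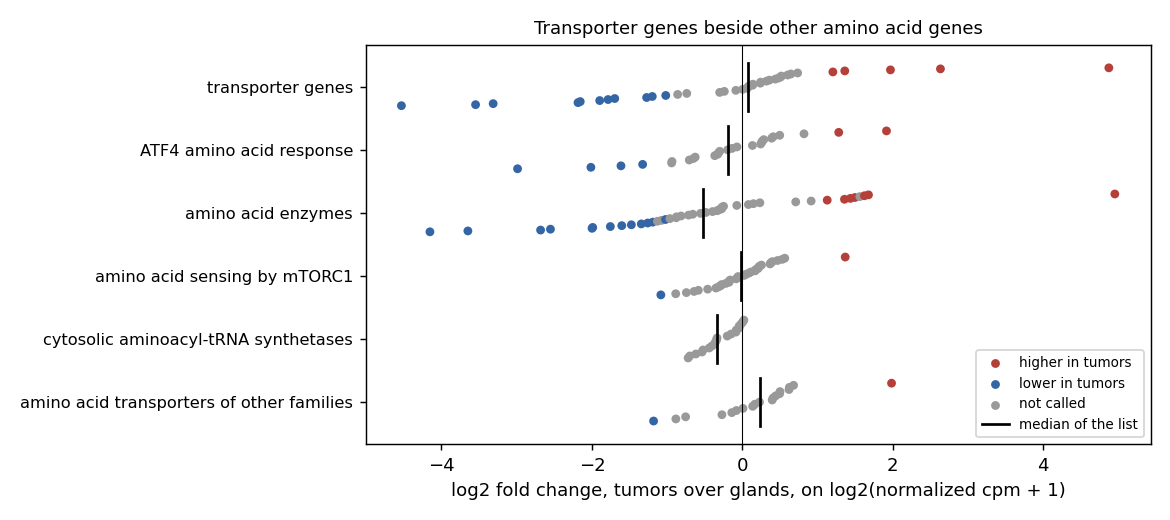
Log2 fold change (tumors minus glands, on log2(normalized cpm + 1), x axis) of every listed gene in the transporter families and 5 further lists (y axis), with red for higher, blue for lower and gray for genes not called. Black lines mark medians, from -0.52 in amino acid enzymes to 0.23 in carriers of other families.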

How the data were processed

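Total RNA of 10 tumors and 3 glands was sequenced. The authors aligned reads to mm10 (Rsubread), obtained gene counts with featureCounts and scaled them in edgeR. The signal values deposited by the authors are these counts over a scaled library size. In all libraries 100% of values were whole multiples of 1 read (tolerance 0.001), and reads were recovered from them. Further filters of the table and the strand setting are not given in the sources used here.

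As planned for normalized values, limma 3.58.1 (R 4.3.3) with a variance trend was fitted on log2(value + 1) over all 15213 genes and 13 libraries, with condition as the only term. Tumors of 1 mouse entered as separate samples, and averaging them was an alternative (5 higher and 9 lower transporter genes, where the fit of all tumors gave 5 and 11). The limit of the methods, over 5 in the majority of libraries, is met mainly through the 10 tumors and was therefore an alternative (28 of the 38 genes pass it, and 5 called genes do not). Other alternatives were pseudocounts, a filter on the mean, scalings, edgeR 4.0.16, DESeq2 1.42.0, voom, averaging by mouse, libraries left out and a replicate block. The fits were tested on simulated data.

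Members, gene lists, motifs and tests were chosen with earlier results of these data known. Named genes were the called members, up to 8 in each direction in full, a set of 9 members given whatever their values, and up to 3 called genes in each direction per pathway list. Per-kilobase values use GENCODE exons of RefSeq-matched transcripts, and coordinates are those of RefSeq GRCm38.p6. A count of 0 allows up to 3 reads at 95% confidence, and intervals and floors cover counting error only.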

Additional observations from a re-analysis of the deposited data

Results flagged for a closer look

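For 7 of the 38 transporter genes, 1 tumor lay far from the other 9, by a gap that Dixon's test flags. That test flags about 1 in 20 groups by chance where values are normally distributed. It was run on normalized cpm without a log, for which the chance rate was not determined. Tumor 4 was highest in Slc36a2 (5.02, next 2.62), Slc7a10 (1.83, next 0.910) and Slc38a4 (11.0, next 0.960), in normalized cpm. Tumor 7 was highest in Slc7a8 (55.1, next 27.5), Slc7a11 (27.3, next 15.8) and Slc36a4 (4.93, next 2.92). Tumor 6 was highest in Slc7a5 (378, next 113). Among tumors, tumor 4 also held the highest skeletal muscle and adipocyte sums, tumor 6 the highest milk protein and epithelial sums, and tumor 7 the highest squamous, basal, neutrophil, fibroblast, endothelial and brown adipocyte sums, and the part of these was not tested. Without tumor 4, Slc36a2 and Slc7a10 had log2 fold changes of -4.68 and -3.65. Without tumor 6, Slc7a5 had one of -0.97 (adjusted p = 0.114, limma), and without gland 3 one of -1.27 (adjusted p = 0.124, limma).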

How the results depend on the processing

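No called transporter gene changed direction. Of the 16 called genes, 6 kept their call in every alternative that tested them (Slc1a3, Slc1a5, Slc36a2, Slc6a2, Slc6a14 and Slc7a10) and 10 lost it in at least 1. Slc36a2 and Slc7a10 do not pass the filter of the methods and were not tested under it. Compared with 5 higher and 11 lower transporter genes, and 11 higher and 19 lower genes of the other lists, a pseudocount of 5 gave 3 and 7 transporter genes and 5 higher list genes, and the filter of the methods gave 3, 7 and 7. Fewer genes were tested under that filter. Library size alone gave 7 lower transporter genes, and the epithelial scale 34 lower list genes. FDR without a fold limit gave 14 higher and 34 lower list genes, beside 2334 and 2427 of all 15213 genes. Leaving out each library in turn gave 4 to 5 higher and 9 to 11 lower transporter genes, and 10 to 12 higher and 17 to 22 lower list genes. With tumors of 1 mouse averaged, and likewise without the 3 tumors of 1 mouse, 5 transporter genes were higher and 9 lower. Without tumor 9 and gland 3, chosen after seeing the data for their Rn45s, 4 transporter genes were higher and 11 lower. With library size alone, calls over all genes were 2374 higher and 1077 lower, on the epithelial scale 1100 and 2275, and in the reported fit 1603 and 1538.

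Replicate numbers did not pair the samples, since the glands came from other mice than the tumors, and tumors 2 and 3 from 1 mouse. The deviations of same-numbered tumors and glands correlated at -0.41, 0.04 and -0.60. Those of tumors and glands with different numbers correlated at between -0.50 and 0.61, so the correlations do not decide this. With the replicate block (tumors 1 to 3, glands 1 to 3), 2 transporter genes were higher and 6 lower, and 5 and 9 list genes. The same 6 libraries without a block, added after seeing the data, gave 2 and 8 transporter genes, and 11 and 18 list genes. Over all genes the calls were 1095 with the block and 2198 without it. Weakly expressed genes are limited by depth, since 3 reads correspond to between 0.128 and 0.683 normalized cpm. Other causes of these differences were not tested.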
